A study of Arabidopsis thaliana with 8 samples.

Results

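CBF1, CBF2 and CBF3 are the cold-induced C-repeat binding factor genes of Arabidopsis thaliana, and their transcripts were followed here from 1 h to 7 d at 4 °C. The genes were taken by identity: CBF1 (AT4G25490, probe set 254074_at), CBF2 (AT4G25470, 254075_at) and CBF3 (AT4G25480, 254066_at, also called DREB1A). They were chosen with earlier results of these data known, so their ranks and p-values are not those of an unselected set. They are 3 of the 22810 probe sets on the ATH1 array, an Affymetrix chip that reads each transcript with a set of short oligonucleotide probes. In the RefSeq gene table for the assembly TAIR10.1 the genes follow one another on chromosome 4 in the order CBF2, CBF3, CBF1, with no other listed protein-coding gene between them. The platform annotation used here names no gene for these 3 probe sets, so their assignment to the CBF genes came with the choice of the genes and was not checked against it.

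The CBF proteins are transcription factors of the AP2/ERF family. They bind the C-repeat/dehydration-responsive element in the promoters of cold-regulated (COR) genes, whose products include dehydrins and chloroplast stromal proteins that protect cells during freezing. In warm plants the CBF transcripts are scarce. Cold acts on their promoters through factors such as ICE1 and the calmodulin-binding CAMTA proteins, and the circadian clock gates that response. The 3 proteins are closely related in sequence, and their transcripts are alike enough that array probes may not tell them apart fully. Cross-hybridisation between them was not tested, because probe sequences were not used here.

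All plants were wild-type Col-0, the common laboratory accession, grown on soil (Bacto mix), and RNA came from the above-ground parts. The control plants were harvested at 0 h, without cold treatment, and the others after 1 h, 24 h or 7 d at 4 °C, with 2 arrays at each time and 8 in all. All samples are labelled 18 d old, yet stratification lasted 4 d and warm growth, at 22 °C, is given as 10 d, which leaves plant age unsettled. Growth light was continuous at 100 µmol m-2 s-1 and the light in the cold was about 25 µmol m-2 s-1, so cold plants were also in dimmer light, and cold and dim light cannot be told apart. No warm plants were sampled at the later times, so plant age and time in the cold cannot be told apart either. How many plants made up an array is not given in the sources used here, nor is it stated that the arrays of a time came from separate cultures. The p-values therefore measure only the spread between these arrays, which may be technical.

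The values are MAS5 signals, the brightness of a probe set in arbitrary units on a linear scale, and array medians ranged from 32.8 to 37.8. Replicate arrays correlated at r = 0.964 to 0.975 across tested probe sets on the log2 scale. The leaf gene RCA, which encodes Rubisco activase, ranged from 3404 to 5935 and was above the 99.7th percentile of each of the 8 arrays. Its 7 d arrays were its lowest, and it was called lower at 7 d than in control (-0.67, limma adjusted p = 0.00385). It was the only member of 6 listed leaf markers that the annotation names, and 2 of 7 root markers were named. The root and hypocotyl gene PYK10 gave signals of 15.6 and 18.9 at 7 d, against 152 and 130 in control plants. The other named root gene, EXP7, gave only 2.20 to 15.0 over the 8 arrays and was not tested. Its means were 11.7 in control, 5.85 at 1 h, 8.61 at 24 h and 6.03 at 7 d. The part of RCA and PYK10 in the 7 d values was not tested. The 3 flower and 3 seed markers are not analysed here. The ratio of 3′ to 5′ GAPDH probe sets, a sign of RNA integrity, was 1.46 and 1.46 at 1 h, against 1.24 and 1.26 in control. The ubiquitin ratio moved the other way, with 2.08 and 1.90 at 1 h, against 2.88 and 2.22 in control. The part of RNA quality in the 1 h values was not tested.

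CBF1 was bright at 1 h and faint in control plants. Its signals were 3.01 and 1.69 in control, 476 and 342 at 1 h, 87.0 and 71.0 at 24 h, and 30.3 and 27.2 at 7 d. No array of a cold time overlapped the control arrays, and the times did not overlap one another, so the level stood highest at 1 h and lower at each later time. The control signals lay at the 12.9th and 9.47th percentile of their arrays, near the floor of what these arrays give, while the 1 h signals lay at the 93.9th and 91.4th. The mean was 409 ± 94.8 at 1 h, against 2.35 ± 0.938 in control (SD, n = 2 each). In such bulk samples more cells that express a gene and more transcript per cell cannot be told apart.

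CBF2 followed the same order of times. Its signals were 23.3 and 23.9 in control, 1028 and 1059 at 1 h, 323 and 314 at 24 h, and 69.3 and 54.8 at 7 d. The groups were separate at every time, and the 2 arrays of a time differed by 1.03-fold at each time but 7 d, where they differed by 1.26-fold, the widest of the 3 genes at that time. In control its signals sat at the 40.6th and 41.0th percentile of their arrays, and at 1 h at the 97.5th and 97.7th.

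CBF3 gave 28.0 and 16.0 in control, 417 and 392 at 1 h, 189 and 196 at 24 h, and 41.6 and 34.4 at 7 d. Again no times overlapped, but its control arrays differed by 1.75-fold, wider than the gap between the lower 7 d array and the higher control array. The control signals stood at the 44.3rd and 34.0th percentile, and those at 1 h at the 93.0th and 92.5th.

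**Figure D1:**
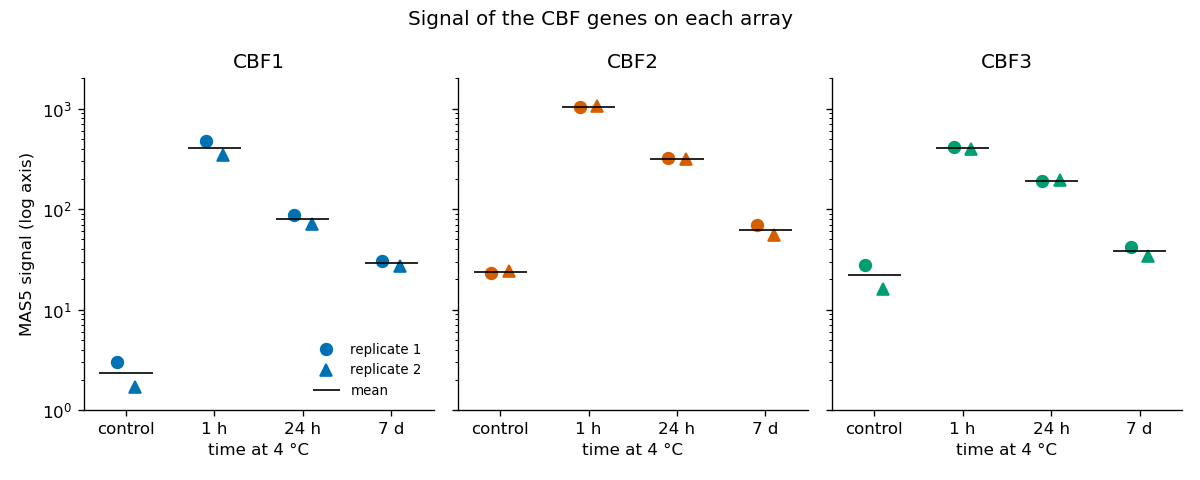
MAS5 signal (log axis, arbitrary units) of CBF1, CBF2 and CBF3 on each of the 8 arrays, by time at 4 °C; circles are replicate 1, triangles replicate 2 and bars the mean of 2 arrays. Each gene is lowest in control, highest at 1 h (means of 409, 1043 and 405) and lower at 24 h and again at 7 d.

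The first comparison asks how fast the CBF genes respond to cold. After 1 h all 3 had risen, CBF1 by a fitted 48.8-fold, CBF2 by 35.3-fold and CBF3 by 15.0-fold. The CBF1 fold is set against a control signal near the floor of the arrays and moves with the pseudocount, from 4.17 to 7.48 on the log2 scale. The folds come from a fit across all tested probe sets on log2(signal + 6.07), a scale that understates the change of weak signals. On it CBF1 rose by 5.61 (95% interval 5.14 to 6.08, limma adjusted p = 7.16e-06), CBF2 by 5.14 (4.82 to 5.47, adjusted p = 1.29e-06) and CBF3 by 3.90 (3.43 to 4.38, adjusted p = 8.28e-05). A probe set was called changed at an adjusted p under 0.05. Of the 14756 probe sets tested, 0.867% were called higher at 1 h, and CBF1, CBF2 and CBF3 ranked 1, 2 and 8 among all rises by size. The median change of all tested probe sets was -0.04, and 72 of them rose by more than 2 on the log2 scale.

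CBF1 entered the test through its cold arrays alone, since it was under the filter on low values on both control arrays. CBF2 was over that filter on all 8 arrays and CBF3 on 7, including 1 of the control arrays. The size of the CBF1 rise rests on how its faint control signal is treated. The plain ratio of its mean signals at 1 h and in control was 174, while the same ratio was 44.2 for CBF2 and 18.4 for CBF3. With a larger pseudocount of 21.3 CBF1 rose by 4.17 on the log2 scale and stood behind CBF2 at 4.57, so the order of these genes is not settled. CBF3 had the smallest rise at 1 h under the settings tried, leaving out each array in turn included.

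**Figure D2:**
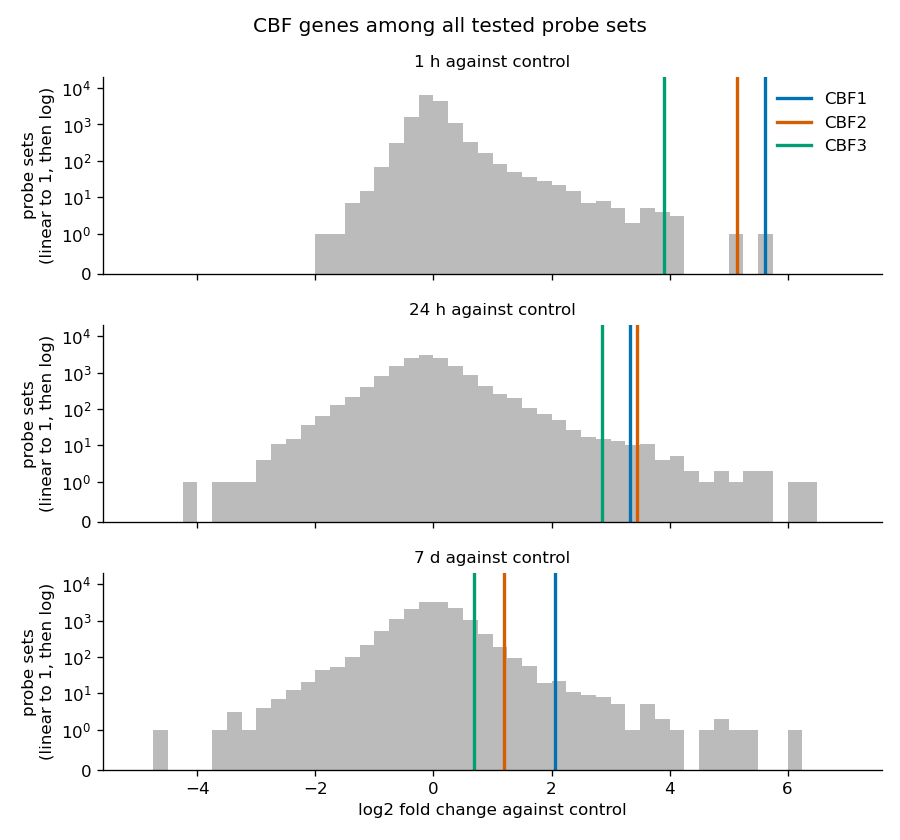
Log2 fold change against control (horizontal axis) of all tested probe sets as a histogram (grey, vertical axis counts probe sets, linear to 1 and then log) at 1 h, 24 h and 7 d, with coloured lines at the CBF genes. At 1 h the lines stand at 5.61, 5.14 and 3.90 at the far right, and at 7 d CBF3 stands at 0.68.

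At 24 h the CBF genes remained far above control but were no longer at the top of the response. CBF1 stood a fitted 10.1-fold above control (log2 3.34, interval 2.87 to 3.81, adjusted p = 3.45e-05), CBF2 10.9-fold (3.45, 3.13 to 3.78, adjusted p = 4.54e-06) and CBF3 7.24-fold (2.86, 2.39 to 3.33, adjusted p = 7.01e-05). The CBF1 value ran from 2.08 to 5.12 on the log2 scale with the choice of pseudocount, which its interval does not cover. All 3 were called, in a comparison where 11.1% of tested probe sets were called higher and 15.1% lower. The genes ranked 40, 37 and 65 among the rises at 24 h. The median of all tested probe sets was -0.10 there, and with each array centred on its median the CBF changes were 3.48, 3.60 and 3.00.

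Between 1 h and 24 h all 3 genes fell. CBF1 fell to 19.3% of its 1 h mean signal, CBF2 to 30.6% and CBF3 to 47.6%. On the log2 scale CBF1 changed by -2.27 ± 0.21, CBF2 by -1.69 ± 0.14 and CBF3 by -1.05 ± 0.21 (SE, limma adjusted p = 0.00021, 0.000138 and 0.00733). All 3 were called lower, as were 14.9% of tested probe sets, while 11.6% were called higher at 24 h than at 1 h. The gap between the falls of CBF1 and CBF3 was 1.23, and their 95% intervals did not overlap. Those of CBF1 and CBF2 overlapped, with a gap of 0.58, as did those of CBF2 and CBF3, with a gap of 0.64.

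From 24 h to 7 d CBF1 had the smallest fall of the 3 genes. At 7 d CBF2 fell to 19.5% of its 24 h mean and CBF3 to 19.7%, while CBF1 fell to 36.4%. CBF2 changed by -2.26 ± 0.14, CBF3 by -2.18 ± 0.21 and CBF1 by -1.28 ± 0.21 on the log2 scale (SE, limma adjusted p = 0.000304, 0.00153 and 0.0107). In this comparison 4.22% of tested probe sets were called lower, and CBF2 and CBF3 ranked 14 and 16 among all falls, against 138 for CBF1. The CBF1 fall lost its call without 24 h replicate 1 (-1.15, adjusted p = 0.0711) or without 7 d replicate 2 (-1.22, adjusted p = 0.0561). The 95% intervals of the CBF1 and CBF2 falls did not overlap, with a gap of 0.98, and those of CBF1 and CBF3 overlapped.

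After 7 d in the cold the CBF transcripts were far below their 1 h levels. CBF1 was at 7.04% of its 1 h mean, CBF2 at 5.95% and CBF3 at 9.40%. The log2 changes of -3.56, -3.95 and -3.22 were all called (adjusted p = 5.13e-05, 6.32e-06 and 7.55e-05), where 8.72% of tested probe sets were called lower at 7 d than at 1 h. They ranked 17, 9 and 25 among the falls.

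Against control, 2 of the 3 genes were still called higher at 7 d. CBF1 stood a fitted 4.15-fold above control (log2 2.05, interval 1.58 to 2.52, adjusted p = 0.000709) and CBF2 2.28-fold (1.19, 0.86 to 1.52, adjusted p = 0.00174), in a comparison that called 7.33% of tested probe sets higher. With the choice of pseudocount the CBF1 value ran from 1.08 to 3.67 on the log2 scale, and it was called throughout. CBF3, at a mean of 38.0 ± 5.12 at 7 d against 22.0 ± 8.50 in control (SD, n = 2 each), was 1.60-fold above it with an interval on the log2 scale of 0.21 to 1.15. It did not pass (adjusted p = 0.0578), although both 7 d arrays were above both control arrays. Leaving out control replicate 1 brought it to 0.99 on the log2 scale, and leaving out control replicate 2 to 0.37. Its value at 7 d thus depends on which control array is kept.

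**Figure D3:**
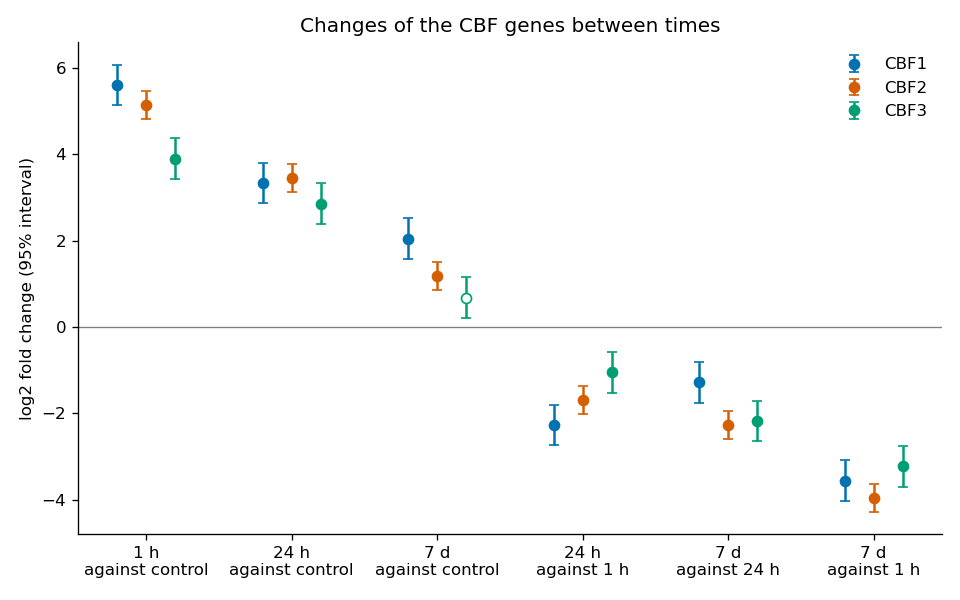
Log2 fold change with its 95% interval for CBF1, CBF2 and CBF3 in 6 comparisons between times (2 arrays per time, limma); filled points were called at an adjusted p under 0.05, and the open point was not. CBF1 has the larger fall from 1 h to 24 h (-2.27) and CBF2 and CBF3 the larger falls from 24 h to 7 d (-2.26 and -2.18).

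Over the whole course each gene passed the test for any difference among the 4 times (limma moderated F, adjusted p = 9.22e-06 for CBF1, 1.42e-06 for CBF2 and 3.39e-05 for CBF3), as 29.9% of tested probe sets did. The residual SD between replicates was 0.11 for CBF2 on the log2 scale, below the median of 0.19 over tested probe sets. It was 0.21 for CBF1 and 0.24 for CBF3. Across the 8 arrays the log2 values of CBF2 and CBF3 correlated at r = 0.990, those of CBF1 and CBF2 at 0.978 and those of CBF1 and CBF3 at 0.956. These r values describe arrays that share the same 4 times, and they carry no test.

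Differences between the genes in how much they changed were compared in 18 pairings of genes and times. The exact two-sided permutation test of 2 arrays against 2 cannot go below p = 0.333, and 17 of the 18 gave that value, so none could pass. At 1 h the gap between CBF1 and CBF3 was 1.71 on the log2 scale, and between CBF2 and CBF3 it was 1.24. In both the 95% intervals of the changes were apart. The gaps that involve CBF1 move with the pseudocount: with the larger one the rises were 4.17 for CBF1, 4.57 for CBF2 and 3.31 for CBF3. The gap between CBF1 and CBF2 at 24 h against control was -0.12, with arrays that overlapped (exact permutation p = 0.667). Levels were not compared between genes, because each probe set has its own brightness per transcript.

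Of the factors that act on the CBF genes, few could be read. The list of upstream regulators holds 28 genes, of which the annotation names 6 and 5 were tested. At 1 h 0 of these 5 were called by limma in either direction, with a median change of 0.04 against -0.04 over all tested probe sets. With 0.867% of all tested probe sets called higher then, a count of 0 is near the background. PUB25, a ubiquitin ligase known to act on the CBF repressor MYB15 in the cold, gave 60.6 and 40.8 at 1 h, against 27.4 and 20.8 in control. Its 1 h arrays were above its control arrays, but the change of 0.90 ± 0.30 did not pass (adjusted p = 0.506). From 1 h to 24 h it was called lower by -0.96 (adjusted p = 0.0473). That comparison called 2 of the 5 lower, beside 14.9% of all tested probe sets, and was not rerun under the alternatives for these genes. The related ligase PUB26 was called lower from 1 h to 24 h by -1.44 (adjusted p = 0.0282). It gave 2.35 and 11.1 at 24 h, against 20.9 and 31.5 in control, a change of -1.41 (adjusted p = 0.0311). Both 24 h arrays were under the filter on low values, so PUB26 entered the test through control and 1 h arrays alone. It was the only 1 of the 5 called at 24 h against control, and its call was lost in a fit to the times compared alone (adjusted p = 0.0633). It was also lost without control replicate 1 (0.0675), control replicate 2 (0.16), 1 h replicate 1 (0.0501) or 24 h replicate 1 (0.14, at a change of -0.89).

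The other upstream genes that were tested were not called against control at any time. EIN3, an ethylene-pathway factor that represses CBF genes, changed by -0.04, -0.23 and -0.05 at 1 h, 24 h and 7 d on the log2 scale (adjusted p = 0.99, 0.274 and 0.837). Its 24 h arrays were below those of control, while its 1 h and 7 d arrays overlapped them. CAMTA5, a calmodulin-binding activator of CBF1, changed by -0.14, 0.35 and 0.23 (adjusted p = 0.959, 0.189 and 0.428). Its 24 h and 7 d arrays were above those of control, while its 1 h arrays overlapped them. For SIZ1, the SUMO ligase that modifies ICE1, 2 probe sets were tested, and the brighter gave 0.12, -0.04 and -0.14 (adjusted p = 0.949, 0.838 and 0.507). Arrays of the brighter were above control at 1 h and below it at 24 h and 7 d, and those of the other overlapped control. CES, a bHLH factor that binds CBF promoters, had signals of 1.59 to 8.81 and was not tested. ICE1 itself and the other listed regulators are not analysed here.

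Among 6 listed relatives of the CBF genes, TINY was the only member the annotation names. This AP2/ERF gene gave 25.4 and 31.2 at 1 h, against 27.3 and 20.6 in control, so the groups overlapped. It was not called in any of the 6 comparisons. On chromosome 4, the 5 protein-coding genes on each side of the CBF cluster include 2 that the annotation names. AT4G25510 gave signals of 0.201 to 6.77 and TRM23 0.858 to 15.2 over the 8 arrays, and neither reached the filter.

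STZ, also known as ZAT10, is a cold-induced zinc-finger gene that rises alongside the CBF genes in the early response. It was the only 1 of 20 other listed early factors that could be tested. STZ gave 61.9 and 128 in control, 1329 and 1134 at 1 h, 136 and 165 at 24 h, and 52.4 and 186 at 7 d. Its 1 h arrays stood far above the others, and its 7 d arrays spanned those of control. Its fall from 1 h to 24 h was -2.99 on the log2 scale (adjusted p = 0.00329), against -2.27, -1.69 and -1.05 for the CBF genes. At 24 h against control it was at 0.70 and was not called (adjusted p = 0.328), while all 3 CBF genes were, a difference that was not tested.

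Genes that the CBF proteins switch on were called at the later times. Of 22 listed CBF targets the annotation names 4, and all 4 were tested. At 1 h 0 of 4 were called by limma, with a median change of 0.05, where 0.867% of all tested probe sets were called higher, so a count of 0 is near that background. At 24 h 4 of 4 were called higher, beside 11.1% of all tested probe sets, with a median of 4.02 against -0.10. At 7 d 4 of 4 were called higher, beside 7.33%, with a median of 3.40. The fall of the CBF genes from 1 h to 24 h thus stood beside a rise of all 4 targets over the same interval, with a median of 4.15.

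COR47, a dehydrin gene, gave 750 and 333 in control, 998 and 524 at 1 h, 8184 and 7912 at 24 h, and 3308 and 2420 at 7 d. Its 1 h and control arrays overlapped, and both later times were apart from them. It rose by 3.99 ± 0.38 at 24 h (adjusted p = 0.000274) and stood at 2.49 at 7 d (adjusted p = 0.00463). It was the only target called lower at 7 d than at 24 h (-1.51, adjusted p = 0.0453), a call lost with no filter, no variance trend, robust eBayes or quantile normalization, and without either array of 24 h or 7 d.

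LTI30, a dehydrin gene with a strong cold response, gave 119 and 86.4 in control, 161 and 71.2 at 1 h, 7291 and 6834 at 24 h, and 3824 and 3078 at 7 d. Its 1 h arrays spanned those of control, and it kept 48.9% of its 24 h mean at 7 d. COR15A and COR15B, which encode stromal proteins that shield chloroplast membranes, kept 71.3% and 61.4%, and COR47 kept 35.6%. These shares stand beside 36.4%, 19.5% and 19.7% for CBF1, CBF2 and CBF3, so COR47 lay close to CBF1. At 24 h the 4 targets lay at the 99.79th to 99.99th percentile of their arrays, and the CBF genes at the 66.5th to 90.6th. Whether signals so near the top of the arrays alter these shares was not tested. COR15A, COR15B and LTI30 were not called between 24 h and 7 d (adjusted p = 0.31, 0.203 and 0.0726). All 3 were called lower in a fit to the times compared alone (limma adjusted p = 0.0139, 0.00508 and 0.00559), and LTI30 also with the replicate block (0.0105). Alternatives other than leaving out arrays moved the changes both ways from -0.49, -0.70 and -1.04. They ran from -0.60 to -0.01 for COR15A, -0.81 to -0.32 for COR15B and -1.15 to -0.55 for LTI30. At the smallest of these sizes none was called. Without 1 h replicate 1 or without 1 h replicate 2 the LTI30 change stayed at -1.04.

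**Figure D4:**
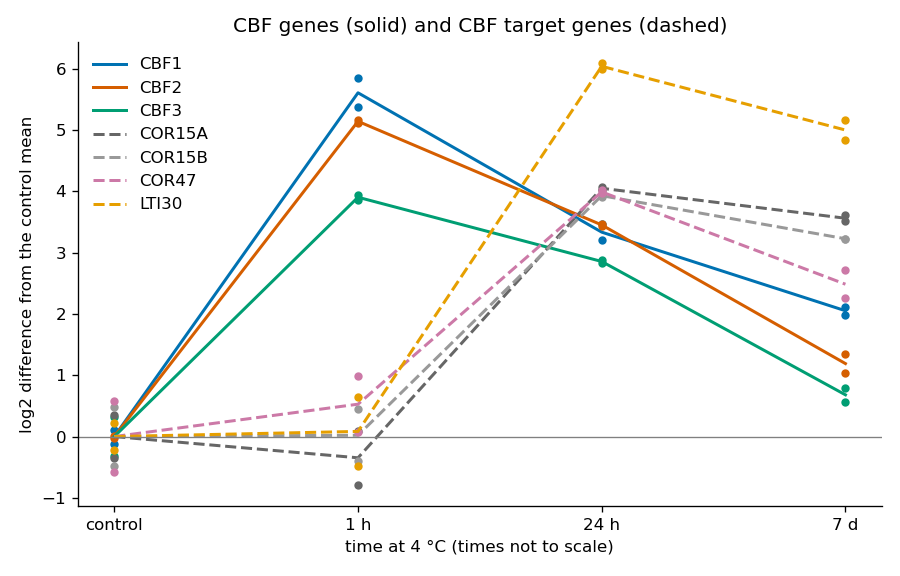
Log2 difference from the control mean of log2(signal + 6.07) for the CBF genes (solid lines) and 4 of their target genes (dashed lines) by time at 4 °C, with points for each array and lines through the means of 2 arrays. Among the sampled times, the CBF lines are highest at 1 h (5.61, 5.14 and 3.90), when no target is called. The target lines are highest at 24 h, and levels between the sampled times are not known.

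Clock genes, which gate the cold response of the CBF genes, could be read for few members. Of 19 listed, 3 were named and tested, and 0 of 3 were called by limma at 1 h, which is near the 0.867% of all tested probe sets called higher then. Their median change at 1 h was 0.79, against -0.04 over all tested probe sets. COR27 stood at 0.83, COR28 at 0.79 and GI at 0.30, each with 1 h arrays that overlapped control. At 24 h 3 of 3 were called higher than control, beside 11.1% of all tested probe sets. GI, a clock gene that also affects freezing tolerance, gave 380 and 379 at 24 h, against 90.2 and 59.8 in control, a change of 2.28 ± 0.26 (adjusted p = 0.000577). COR27 and COR28, cold-induced genes that feed into the clock, changed by 3.52 ± 0.45 and 2.46 ± 0.43 at 24 h (adjusted p = 0.00102 and 0.00449). At 7 d GI stood at 2.57 and COR27 at 2.82, both called, and COR28 at 1.30, which did not pass (adjusted p = 0.077) but did in a fit to the times compared alone (0.0434) and without either 1 h array (0.0208 and 0.0197).

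Named genes whose log2 values tracked the CBF genes most closely over the 8 arrays were found by Pearson's r, as a description. AT5G44710 was nearest to CBF1 (r = 0.982) and to CBF2 (r = 0.974), and AT4G32020 to CBF3 (r = 0.969). Both AT5G44710 and AT4G32020 were among the nearest 5 of all 3 genes. AT4G32020 gave 392 and 344 in control, 1284 and 1023 at 1 h, 905 and 916 at 24 h and 505 and 597 at 7 d. Its changes against control were 1.63, 1.30 and 0.57 on the log2 scale. AT4G27657 gave 95.4 and 57.5 at 1 h, against 9.83 and 13.7 in control, a change of 2.18. It was under the filter on both control arrays and entered the test through its cold arrays alone. These genes were picked by their match to the CBF genes over the same arrays. Their changes at 1 h are therefore no separate evidence of a cold response. AT3G56880 changed by 1.83 at 1 h and, as with CBF1, was much lower at 24 h, at 0.69. A close match in shape did not mean a large change: AT5G44710 changed by 0.59 at 1 h and was not called (adjusted p = 0.181). EXLA1, an expansin-like gene near CBF3 in pattern (r = 0.933), was as high at 24 h as at 1 h, with changes of 2.37 and 2.32, and stood at -0.40 at 7 d.

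**Figure D5:**
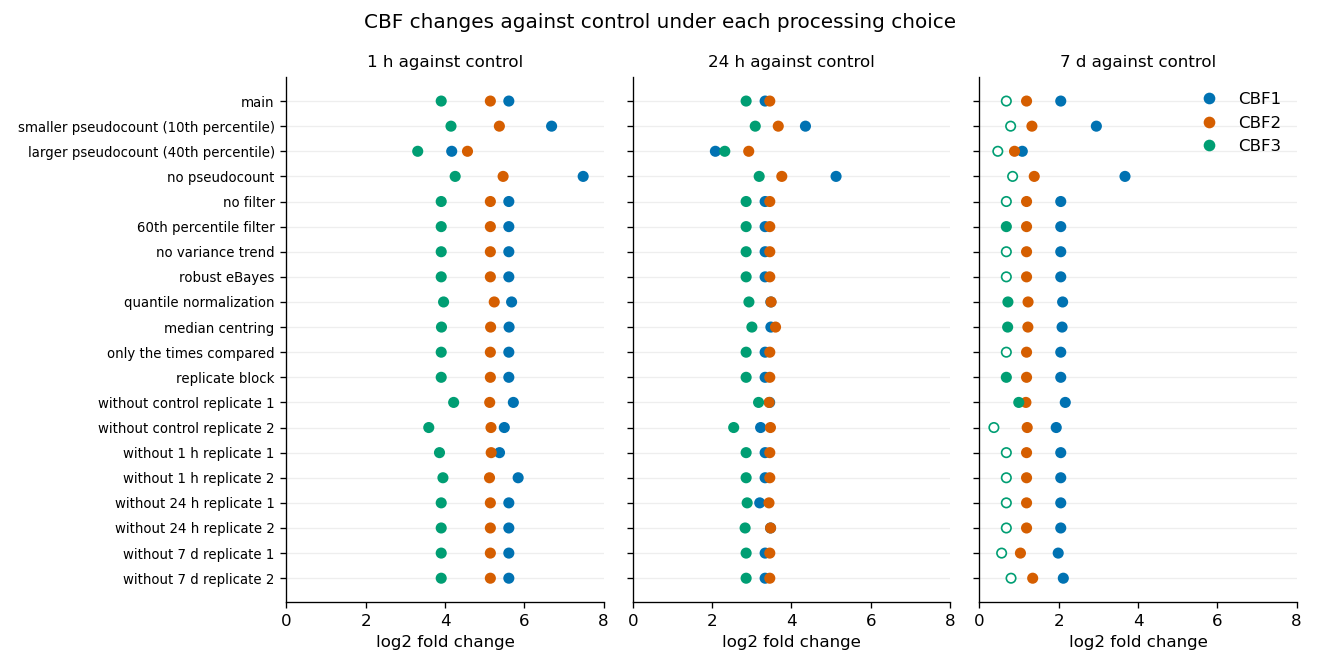
Log2 fold change against control of CBF1, CBF2 and CBF3 at 1 h, 24 h and 7 d under the main processing and each alternative (rows), filled where called and open where not. The pseudocount moves CBF1 most, between 4.17 and 7.48 at 1 h, and CBF3 at 7 d is called in some rows.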

How the data were processed

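Signals of 8 ATH1 arrays, 2 at each of 4 times, were used as deposited. The authors deposited signal intensities on a linear scale, made with MAS5 per the submitters' processing notes. The MAS5 version is not given in the sources used here. The mean of each array after trimming at both ends was 100, and this scaling was kept. Detection calls and scan dates were not used. With 2 arrays per time, the median SE of a log2 fold change at 1 h was 0.19.

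Control probe sets (64) were left out. The filter asked for a signal no lower than the array's 40th percentile on 2 arrays or more, which kept 14756 probe sets. Values were used as log2(signal + 6.07), with the pseudocount at the 20th percentile of the table. A mean per time was fitted with limma 3.58.1 in R 4.3.3 (lmFit, contrasts.fit, eBayes with trend; 4 residual degrees of freedom). P-values were two-sided, Benjamini-Hochberg adjusted over all tested probe sets, and called under 0.05. The fit was tested on simulated data. Alternatives changed the pseudocount, filter, variance model, normalization, arrays and replicate block.

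The annotation named 1 gene for 13513 probe sets, several for 503 and none for 8730, and probe sets with several lent no name. The CBF genes and the lists were chosen with earlier results of these data known. Named were the 3 CBF genes, all named relatives and upstream regulators, up to 6 genes of each other list, and for each CBF gene the 5 named probe sets of highest correlation.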

Additional observations from a re-analysis of the deposited data

How the results depend on the processing

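All 3 CBF genes kept their calls and directions at 1 h and 24 h against control, at 24 h against 1 h and at 7 d against 1 h under 19 alternatives, which include leaving out each array in turn. The alternative with no pseudocount was chosen after seeing the data. CBF1 at 1 h changed by 6.69 with a pseudocount of 1.64, by 4.17 with 21.3 and by 7.48 with none. At 24 h these gave 4.35, 2.08 and 5.12, and at 7 d 2.95, 1.08 and 3.67. The main order at 1 h held under 18 of 19 alternatives, and that at 24 h under 15. CBF3 at 7 d against control passed with the 60th percentile filter (0.68, limma adjusted p = 0.0497), quantile normalization (0.72, 0.0483), median centring (0.71, 0.0478) and the replicate block (0.68, 0.0241). Leaving out single arrays gave 0.37 to 0.99. For CBF1 at 7 d against 24 h such values ran between -1.42 and -1.15. The replicate block changed no other call of the CBF genes, and it called COR28 at 7 d against control (1.30, 0.0101) and LTI30 at 7 d against 24 h (-1.04, 0.0105). Same-numbered arrays deviated together at r = 0.164 to 0.363 over 14756 probe sets, a hint from the data of a shared replicate effect. The labels do not say what the 2 numbers mark, so the block was kept as an alternative. PUB25 at 24 h against control reversed to 0.087 with quantile normalization and 0.083 with median centring, and SIZ1 to 0.10 with median centring. Without single arrays, values at 1 h against control crossed 0 for COR15A (-0.79 to 0.10), COR15B (-0.47 to 0.51), COR47 (-0.051 to 1.11), LTI30 (-0.47 to 0.64), PUB26 (-0.20 to 0.28) and EIN3 (-0.090 to 0.017). So did PUB25 at 24 h (-0.22 to 0.10), and at 7 d PUB25 (-0.30 to 0.48), EIN3 (-0.19 to 0.085) and STZ (-0.71 to 1.01). None of these was called. STZ at 1 h lost its call without control replicate 1 (adjusted p = 0.103), without 1 h replicate 1 (0.115), without 1 h replicate 2 (0.0705) and with robust eBayes (0.0849). CBF targets called lower at 7 d against 24 h numbered 1, and 0 to 4 under alternatives. Probe sets called higher at 1 h numbered 128, and 215 with the replicate block. Those lower at 24 h against control numbered 2235, and 1467 with median centring. Those higher at 7 d against control numbered 1082, and 594 in a fit to the times compared. Those lower at 7 d against 24 h numbered 622, and 402 with no variance trend, 1005 with median centring and 1093 with the replicate block. Without single arrays these counts ran from 30 to 157, 1050 to 2327, 367 to 915 and 135 to 594. The counts at 24 h against 1 h (1707 higher, 2206 lower) ran from 902 to 1715 and 982 to 2294, those lower at 7 d against 1 h (1287) from 457 to 1182, those higher at 24 h against control (1638) from 890 to 1643 and those of the F test (4412) from 2545 to 3812. The cause was not tested. Signal over background limits CBF1 in control plants most, and 2 arrays per time limit every value.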
